A study of Mus musculus with 4 samples.

Results

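Collagen genes were taken as the autosomal protein-coding genes whose symbol reads Col, digits, a, digits, and 42 of 20665 autosomal coding genes met that rule. Another 2, Col4a5 and Col4a6, lie on chromosome X, on which the list holds no interaction, and were not scored. The values were numbers of H3K27ac HiChIP interactions, that is, pairs of genome bins joined by proximity ligation in chromatin enriched for acetylated histone H3, a mark of active promoters and enhancers. They came from 1 list of 99041 interactions, called significant in its file name, between 10 kb bins on mm10, whose file name was read as that of the YAP-M tumor, a mouse brain tumor with the genotype YAP-M fusion. The labels describe 2 tumor libraries and 2 libraries of wild-type neural stem cells (labelled mNSC), cultured with EGF and basic FGF, all made with an H3K27ac antibody. The titles call the libraries ChIP-seq; the extraction protocol and the series design name HiChIP, and the assay is called HiChIP throughout, each deposited line being 2 joined bins. The list names no library and carries no counts, so the depth is unknown, no value has a replicate error and no comparison between tumor and neural stem cells was made. The labels give neither the age or strain of the mice nor how the tumor was induced.

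Collagens are secreted or membrane-bound trimers wound into a triple helix of repeated glycine-containing triplets. Fibrillar collagens form the tensile fibres of connective tissue, type IV collagen forms the sheet-like network of basement membranes, and the remaining types coat fibrils (FACIT, fibril-associated collagens with interrupted helices), bead into microfilaments, build hexagonal nets or span the cell membrane. In the healthy brain, collagen lies mainly in the basement membranes of vessels and of the pial surface, and in the meninges. The type IV genes are arranged as pairs transcribed away from each other from a shared promoter.

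Collagen genes were connected about as often as coding genes in general, and a few members held most of the contacts. An interaction was counted for a gene when either of its anchor bins came within 2.5 kb of one of the gene's annotated ends. By that count, 25 of 42 members had at least 1 interaction (59.5%, exact 95% interval 43.3 to 74.4%), where 65.7% of all autosomal coding genes did. The median was 2 interactions per member and 2 per coding gene. Among genes alone in their end bins, the order was the other way. There, 13 of 22 members had an interaction (59.1%), against 50.5% of coding genes, with medians of 2.5 and 1. The other 20 members shared an end bin with another coding gene, to which contacts counted for them may belong. At least 10 interactions were listed at 6 members (14.3%), against 17.1% of coding genes. These 6 were Col12a1, Col14a1, Col4a1, Col23a1, Col1a2 and Col8a1, and together they held 57.1% of the 182 interactions counted over members. The matching share over all coding genes was not computed, so this concentration cannot be called particular to the family. Col1a2 is the fibrillar gene among them and Col4a1 the basement membrane gene. Intervals on shares cover counting error only, and members that are neighbours are not independent.

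**Figure D1:**
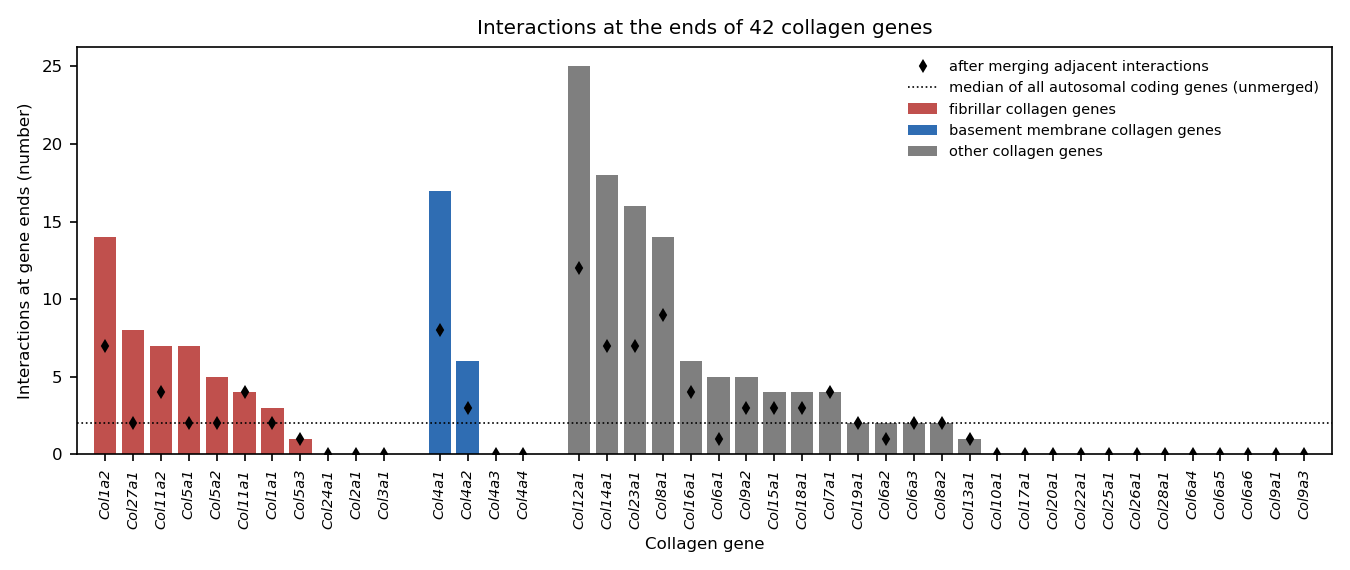
Number of interactions at the ends of each of the 42 collagen genes (bars, vertical axis), in 3 classes (red fibrillar, blue basement membrane, grey other), with black diamonds for the number after adjacent interactions were merged. Col12a1 stood highest with 25, and 17 members stood at 0; the dotted line is the median of 2 over all autosomal coding genes.

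The 3 classes could not be told apart by this count. Of the fibrillar genes, 8 of 11 had an interaction (72.7%, interval 39.0 to 94.0%), with a median of 4. Of the basement membrane genes, 2 of 4 did (exact interval 6.8 to 93.2%), with a median of 3. Of the other types, 15 of 27 did (55.6%, interval 35.3 to 74.5%), with a median of 2. The intervals of the classes overlapped one another and each held the 65.7% of all coding genes. Within the other types, 5 of 9 FACIT genes, 3 of 6 type VI genes, 2 of 3 network-forming genes, both multiplexin genes and 2 of 4 transmembrane genes had an interaction. Among the 3 remaining members it was Col7a1, the anchoring fibril collagen of skin, that had any. Its end bins also hold ends of Pfkfb4, Ucn2 and Uqcrc1, so its contacts may belong to these genes.

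The highest numbers of interactions over the whole span, before merging, were those of the basement membrane pair Col4a1 and Col4a2. These genes encode the chains of the ubiquitous type IV network. Col4a1 lies on chromosome 8 from 11198423 to 11312889 on the minus strand and Col4a2 from 11312805 to 11449287 on the plus strand, so the annotated genes overlap by 85 bases. Their listed starts are 21 bases apart, and the promoter windows of RefSeq (GRCm38.p6, the assembly of mm10), which run from 250 bases before to 50 bases after a start, share 78 bases as reverse complements. The promoters of this pair are shown because their starts lie together, beside that of Col4a4 from the other autosomal pair. Col4a3 had no promoter entry, so a shared start of that pair could not be checked. Capitals mark matches on either strand to 6 motifs. The promoter-box motifs were GGGCGG for the Sp-family box (called GC box here), CCAAT for the NF-Y box and TATAAA for the box bound by TBP. The others were GGAATG for the core of TEAD sites, TGANTCA for AP-1 sites, and the NFI palindrome. Bases that belong to more than 1 match are marked once.
Col4a1 promoter, chr8:11312777-11313076, minus strand: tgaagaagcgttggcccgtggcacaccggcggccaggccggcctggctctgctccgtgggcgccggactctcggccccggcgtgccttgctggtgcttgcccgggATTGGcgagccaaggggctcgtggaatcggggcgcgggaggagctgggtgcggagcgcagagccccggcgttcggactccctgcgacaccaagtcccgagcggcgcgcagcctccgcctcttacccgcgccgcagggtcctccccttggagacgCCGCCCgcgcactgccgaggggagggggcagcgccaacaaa
Col4a2 promoter, chr8:11312555-11312854, plus strand: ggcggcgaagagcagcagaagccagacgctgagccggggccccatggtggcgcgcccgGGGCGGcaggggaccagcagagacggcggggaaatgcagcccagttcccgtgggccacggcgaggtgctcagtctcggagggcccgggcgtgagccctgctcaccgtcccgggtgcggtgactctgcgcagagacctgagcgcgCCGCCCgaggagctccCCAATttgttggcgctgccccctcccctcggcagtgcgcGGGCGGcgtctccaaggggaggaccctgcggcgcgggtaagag
Col4a4 promoter, chr1:82586800-82587099, minus strand: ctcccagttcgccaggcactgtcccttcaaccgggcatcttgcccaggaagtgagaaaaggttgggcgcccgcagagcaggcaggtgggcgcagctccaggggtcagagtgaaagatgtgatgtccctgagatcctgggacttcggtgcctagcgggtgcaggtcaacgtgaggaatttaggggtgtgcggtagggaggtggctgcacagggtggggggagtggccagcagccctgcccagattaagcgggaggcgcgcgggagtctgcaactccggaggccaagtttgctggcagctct
The Col4a1 and Col4a2 windows held 37 and 33 CpG dinucleotides and that of Col4a4 held 14. None of the 6 motifs occurred in the Col4a4 window.

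The bin that holds both starts of Col4a1 and Col4a2 had 5 interactions, which count for both genes. Of these, 3 ran 70 to 90 kb into Col4a2 and 2 ran 50 and 60 kb into Col4a1, and none left the locus. The far end of Col4a1, the low-coordinate end, had 12 interactions, all with bins at still lower coordinates. They reached 770 kb, and 2 of them met an end of Irs2, which encodes an insulin receptor substrate. The far end of Col4a2 had 1, from the bin just past its annotated end to a bin at an end of Rab20, a small GTPase gene. The near bin holds the other end of Rab20, so this interaction joined both ends of Rab20 and cannot be given to Col4a2. Col4a1 thus had 17 interactions at its ends (8 after merging of adjacent ones) and Col4a2 had 6 (3 after merging). With a window of 0 kb Col4a1 had 10, and by the anchor midpoint, which kept its start bin and neither bin of its far end, it had 5.

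Before merging, most interactions of the pair joined the bodies of the 2 genes. The spans of Col4a1 and Col4a2 took part in 59 interactions, and 34 of these had an anchor in Col4a1 and the other in Col4a2, away from the start bin. They filled 21.8% of the 156 bin pairs that could join the bodies, a share not computed for other gene pairs. After merging of adjacent interactions, the 59 made 12 contacts. The 34 fell into 2 of these contacts, and 32 of them into a single one, so most merged contacts did not join the bodies. Their length ran from 90 to 180 kb with a median of 130 kb. On the Col4a1 side the fullest bin of this bridge was 11250001 to 11260000, with 10 of the 34, and on the Col4a2 side it was 11390001 to 11400000, with 7. The centres of these bins lay 57.8 and 82.2 kb inside their genes.

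**Figure D2:**
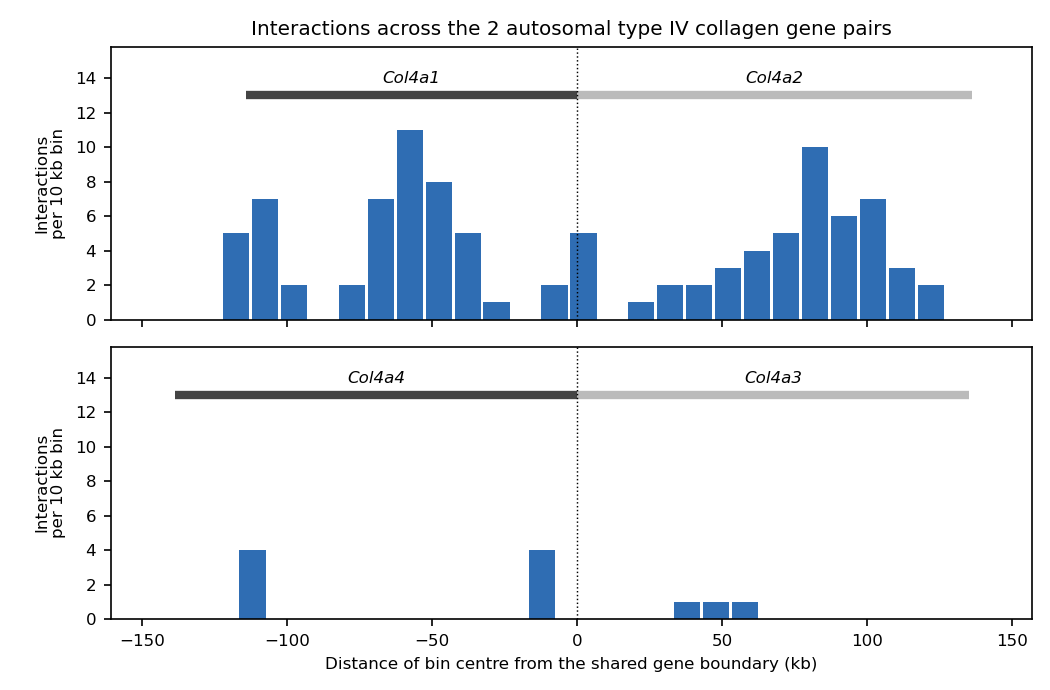
Interactions per 10 kb bin (vertical axis) across Col4a1 and Col4a2 (upper panel) and Col4a4 and Col4a3 (lower panel), by distance of the bin centre from the shared boundary of the genes in kb; dark and light bars mark the gene spans. The upper panel has a maximum inside each gene, of 11 and 10 interactions, and 5 at the boundary, whereas no bin of the lower panel exceeds 4.

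The second pair, Col4a3 and Col4a4, encodes chains of the specialised network of the kidney glomerulus, and had no interaction at any end. Col4a4 spans chromosome 1 from 82448419 to 82587034 and Col4a3 from 82586921 to 82722059, with an overlap of 114 bases. Inside the genes, 8 interactions were listed, of which 3 joined Col4a4 to Col4a3. Those 3 all left from the bin of Col4a4 next to the one that holds its start and met 3 consecutive bins of Col4a3. The bin with the start itself had 0 interactions. The pairs thus had 59 and 8 interactions over their spans, and 12 and 5 contacts after merging. This difference lies within 1 list that has no replicate check. The 3 joins of Col4a4 to Col4a3 were body to body. The 34 of Col4a1 and Col4a2 were so by definition, since the start bin was left out of them. That bin holds both starts, so its 5 interactions with the 2 bodies may also join the genes.

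Among the fibrillar genes, Col1a2 had the highest count at gene ends, but this order depended on the setting. By the anchor midpoint Col1a2 had 4, below Col27a1 (8), Col5a1 (7) and Col5a2 (5). At starts only it had 4, below Col5a1, Col11a2 and Col27a1 (7 each). With a window of 5 kb Col1a2 and Col11a2 both had 15. Col1a2 encodes the second chain of type I collagen, the main fibre of skin, bone and scar tissue, and had 14 interactions (7 after merging). Only 4 of these were at its start and 10 at its far end, and at the start all 4 partners lay 50 to 100 kb upstream. The far-end partners reached 840 kb, and 3 of them held ends of other coding genes. These were a bin of Asb4, a bin of Pon2 and a bin that holds ends of both Peg10 and Sgce. Its partner chain gene Col1a1, on chromosome 11, had 3 interactions, all at lower coordinates within 100 kb and 1 of them at an end of Gm11543. Col3a1, which encodes the type III collagen that is deposited together with type I in vessel walls and scars, had none along its whole length. The promoters of Col1a2 and Col3a1 are shown as fibrillar genes with and without contacts at the start, with the same capitals.
Col1a2 promoter, chr6:4505368-4505667, plus strand: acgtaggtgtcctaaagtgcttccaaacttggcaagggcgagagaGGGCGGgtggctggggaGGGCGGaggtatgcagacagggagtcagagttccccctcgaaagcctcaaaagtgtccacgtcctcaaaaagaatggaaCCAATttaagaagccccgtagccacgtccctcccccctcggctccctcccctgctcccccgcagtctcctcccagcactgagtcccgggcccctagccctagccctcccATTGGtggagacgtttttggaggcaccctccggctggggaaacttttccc
Col3a1 promoter, chr1:45311288-45311587, plus strand: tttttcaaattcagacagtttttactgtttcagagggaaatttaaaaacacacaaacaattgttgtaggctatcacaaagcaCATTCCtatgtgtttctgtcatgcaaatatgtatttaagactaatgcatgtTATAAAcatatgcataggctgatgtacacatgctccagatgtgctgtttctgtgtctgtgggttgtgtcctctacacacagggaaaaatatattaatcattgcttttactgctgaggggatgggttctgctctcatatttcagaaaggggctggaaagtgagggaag
The Col1a2 window held 13 CpG dinucleotides, 2 GC boxes and 2 CCAAT boxes. The Col3a1 window held 0 CpG dinucleotides, 1 TATA box and 1 TEAD core.

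The other fibrillar genes had between 0 and 8 interactions at their ends. Among them, the type V and type XI chains regulate the diameter of the main fibres. Col5a1 had 7 interactions at its start, all with bins 30 to 110 kb upstream that held no end of a coding gene, and merging left 2 contacts. Col5a2 had 5, all at its high-coordinate end and 70 to 120 kb beyond it. Col5a3, whose end bins also hold an end of Rdh8, had 1, at its start, with a bin at an end of Olfm2. Col11a1, a cartilage collagen gene, had 4 at its start with a median length of 360 kb, reaching 400 kb upstream, with Rnpc3 at the far side of 1. Col11a2 had 7, in bins that also hold an end of Rxrb, Slc39a7 and H2-Ke6, so these contacts cannot be given to one gene. Their median length was 560 kb, more than for Col5a1 (80 kb) or Col5a2 (90 kb). Col27a1 had 7 at its start, and all 7 ran into its own body, 40 to 100 kb from the start bin. The cartilage gene Col2a1 had 0 along its whole span, ends included.

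**Figure D3:**
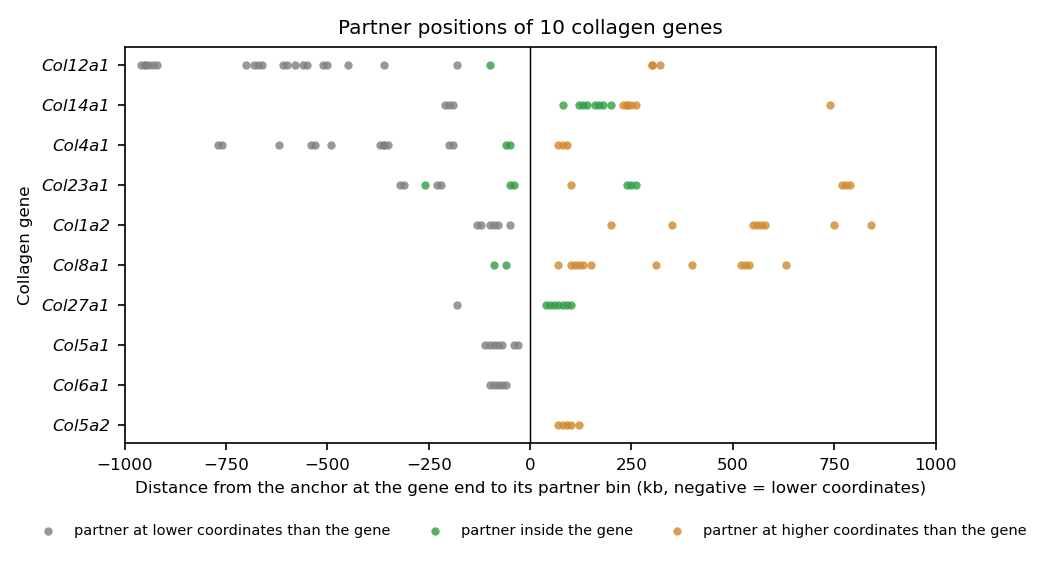
Position of each partner bin relative to the anchor at the gene end (horizontal axis, kb, negative for lower coordinates) for 10 collagen genes, coloured by whether the partner lay inside the gene (green) or at lower (grey) or higher (orange) coordinates. Interactions that joined both ends of 1 gene (1 at Col12a1, 1 at Col14a1, 2 at Col23a1) are not drawn. All partners of Col5a1 lay below its start, those of Col8a1 mostly above its start, and 7 of the 8 of Col27a1 inside the gene.

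Among the FACIT genes, Col12a1 and Col14a1 had the highest counts of the family at gene ends, 4 of the 9 had 0, and the median was 2. This order depended on the setting: after merging, Col8a1 (9) passed Col14a1 (7), with a window of 5 kb it did so by 23 against 18, and by the anchor midpoint Col12a1 and Col14a1 both had 0 and Col8a1 led with 14. Over the whole gene span Col4a1 led with 53. Col12a1, whose product coats type I fibrils, had 25 interactions (12 after merging), all 25 at its high-coordinate end, and 1 of these joined that end to the opposite one. They were long, with a median of 580 kb and a reach of 960 kb. In all, 20 of its partner bins lay at lower coordinates beyond the gene, 1 inside it and 3 at higher coordinates, and in 1 case the partner held a coding-gene end, that of Filip1. The bin 79710001 to 79720000 carried 22 of the 25, and the annotated end lies just past it, at 79721141. With a window of 0 kb, therefore, Col12a1 had 3.

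Col14a1, another FACIT that binds fibril surfaces, had 18 interactions (7 after merging). All 18 were at its low-coordinate end and 1 of these also met its high-coordinate end. Partners inside the gene made up 8. The 3 lower and 6 higher ones included ends of Mrpl13 (3 interactions), Deptor (2), Mtbp (2) and Dscc1 (1). Both interactions with Mtbp are also among those with Mrpl13, so 6 interactions met another coding-gene end. Col16a1 had 6. Col9a2, a cartilage FACIT gene, had 5 at its start, with partners at ends of Zfp69, Exo5 and Smap2 among them, and Col19a1 had 2 inside the gene. Col16a1 also depended on the window, with 0 at 0 kb. Col9a1, Col9a3, Col20a1 and Col22a1 had 0.

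Network-forming and transmembrane collagens contributed 1 strongly connected gene each. Col8a1 encodes a chain of type VIII collagen, a short-chain network collagen of vessel walls and of Descemet's membrane in the cornea. Its 14 interactions (9 after merging) were all at its start. Of the partner bins, 12 lay upstream of the start, 70 to 630 kb away, 2 lay 60 and 90 kb inside the gene, and none held an end of another coding gene. Its promoter is shown because 14 was the highest count at an annotated start among the members.
Col8a1 promoter, chr16:57754688-57754987, minus strand: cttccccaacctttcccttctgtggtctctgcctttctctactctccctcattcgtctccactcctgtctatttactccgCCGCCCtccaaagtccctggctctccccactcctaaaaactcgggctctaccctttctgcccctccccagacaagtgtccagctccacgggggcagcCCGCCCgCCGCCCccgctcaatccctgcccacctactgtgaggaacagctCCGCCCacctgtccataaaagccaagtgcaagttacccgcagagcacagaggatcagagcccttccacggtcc
The window held 4 GC boxes, 12 CpG dinucleotides and none of the other motifs. Col8a2, the gene of the partner chain, had 2 interactions and the hypertrophic cartilage gene Col10a1 had 0. The end bins of Col8a2 also hold ends of Adprhl2 and Tekt2.

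Col23a1, a transmembrane collagen gene, had 16 interactions (7 after merging), with 7 at its start side and 11 at its far end. In 2 of them the 2 ends of the gene were joined. The end bins also hold ends of Clk4 (start side) and Phykpl (far side), and partner bins held ends of Clk4, Vdac1 and Zfp354a in 2 interactions each. Col13a1 had 1, inside its own gene, and Col17a1 and Col25a1 had 0. Of the type VI genes, whose products form beaded microfilaments, Col6a1 had 5, Col6a2 had 2 and Col6a3 had 2. The cluster of Col6a4, Col6a5 and Col6a6 on chromosome 9 had 0 at every end and 0 over each span. The multiplexin genes Col15a1 and Col18a1, whose products are basement membrane proteoglycans, had 4 each. Col26a1 and Col28a1 had 0.

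In 15 of 42 members (35.7%), the interior carried more contacts than the ends: bins inside the gene had more interactions that touched no end bin than the ends had in all. This held for 9.72% of all coding genes, but members are longer. Among genes of at least 100 kb, a limit chosen after the values were seen, it held for 10 of 24 members (41.7%) and 46.5% of 2315 coding genes. Counted over the whole span, 30 of 42 members (71.4%) had an interaction, against 65.7% of coding genes, with medians of 5 and 3. The median length was 110 kb for members and 17.5 kb for coding genes, and a longer span meets more bins. Per 10 kb bin spanned, the median was 0.565 interactions for members and 0.67 for coding genes, and the upper quartile of coding genes was 2. Col4a1 reached 4.08 per bin, Col4a2 3.21, Col1a2 3.2, Col15a1 3.17 and Col8a1 2.64.

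Col15a1 had the third largest number over its span, 38, of which 34 touched no end. Its start had 0 interactions. The fullest bin, 47250001 to 47260000 on chromosome 4, lay 47.0 kb inside the gene from the start and had 13. Of the 36 interactions of its inner bins, 29 went to higher coordinates, and all 36 reduced to 4 merged contacts. In Col8a1, 23 interactions of inner bins added to the 14 at the ends, with a median length of 540 kb over its 25 inner-bin interactions. Col18a1 had 11 such interactions, all directed upstream of the gene. Col24a1, a fibrillar gene with 0 at its ends, had 14 in its interior, of which 10 went beyond its far end and 4 stayed inside. Of the 17 members with no contact at an end, 5 had contacts inside (Col24a1, Col4a3, Col4a4, Col17a1 and Col22a1) and 12 had none.

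**Figure D4:**
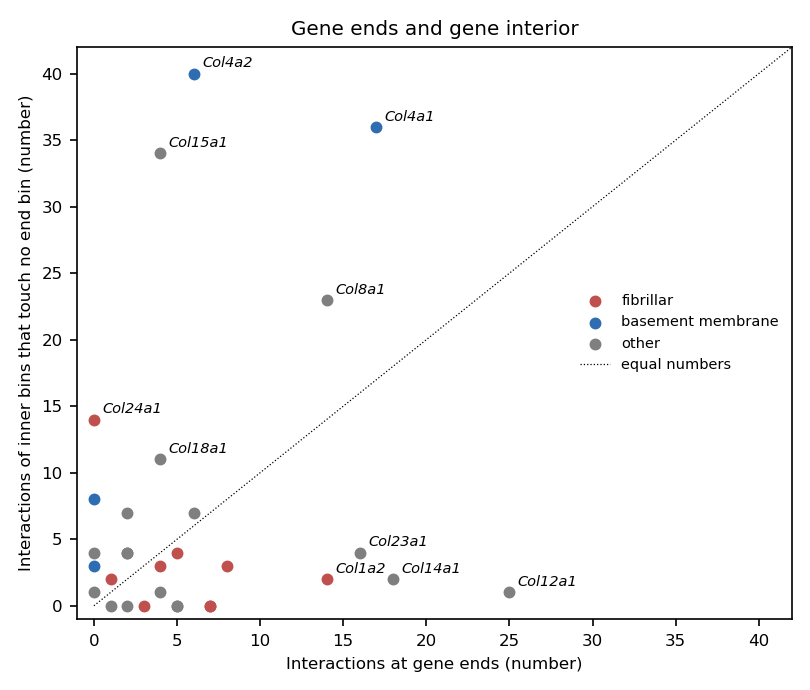
Interactions at gene ends (horizontal axis) and interactions of inner bins that touch no end bin (vertical axis) for the collagen genes with any interaction, coloured by class; the dotted line marks equal numbers. Col4a2 (6 and 40), Col4a1 (17 and 36) and Col15a1 (4 and 34) lie far above the line and Col12a1 (25 and 1) far below it.

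Of 11 pairs of collagen genes within 500 kb of each other, the type IV pairs included, 1 (9.09%) had an interaction from an end of one gene to an end of the other, against 9.05% of all such pairs of coding genes. It joined Col6a1 and Col6a2, which encode chains of the same type VI molecule and are both on the minus strand with a gap of 85.2 kb, and linked their starts. The other 4 interactions of Col6a1 ended in bins between the 2 genes, and merging reduced its 5 to 1 contact. Col3a1 and Col5a2, 24.6 kb apart, and Col9a1 and Col19a1, 4.9 kb apart, had no interaction between them. Neither had Col18a1 with Col6a1 or Col6a2, Col9a3 with Col20a1, or the Col6a4, Col6a5 and Col6a6 cluster.

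The share of collagen genes with contacts at the start-side end was near that of all coding genes, and the share at the far end was lower, without a test. The 9 members without a listed strand, Col12a1 and Col14a1 among them, could not be included. Among the 32 members with a strand in the RefSeq table and ends in separate bins, 20 had an interaction at the start-side end (62.5%) and 10 at the far end (31.2%), with 86 and 47 interactions, so that 64.7% were at the start side. Over 10653 coding genes the shares of genes were 65.5% and 44.1%, and 67.7% of the interactions (41670 against 19861) were at the start side. At annotated starts alone, 20 of 33 members had an interaction (60.6%), against 60.1% of coding genes. Partner bins of members held an end of another coding gene in 41 of 182 cases (22.5%), against 47.9% over all coding genes. Members also had fewer coding neighbours, with a median of 12.5 other coding genes within 500 kb against 17. The part of that density in the lower share was not tested. The median length of interactions at member ends was 150 kb, against 170 kb at the ends of any coding gene. Across the 42 members, the count and gene length had a Spearman rho of 0.00 (0.24 over coding genes), a description without a test.

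Starts with contacts were richer in CpG, as among coding genes generally. RefSeq promoters were found for 33 members (36 windows of 300 bases). Col1a1, Col2a1, Col4a3, Col5a2, Col9a3, Col12a1, Col14a1, Col22a1 and Col26a1 had no entry. The 21 windows with an interaction had a median of 16 CpG dinucleotides (3 to 37) and the 15 without had 6 (0 to 23). Over coding genes the medians were 19 and 5. GC boxes occurred in 21 of 36 member windows (58.3%, against 47.0% of 20085 coding-gene windows) and CCAAT boxes in 12 (33.3%, against 38.1%). TATA boxes occurred in 5 (13.9%, against 12.7%), TEAD cores in 4 (11.1%, against 13.4%) and AP-1 sites in 1 (2.78%, against 7.06%). The NFI palindrome occurred in 0 windows, against 0.0349% of coding-gene windows. The AP-1 match was in the Col6a1 window, and the TEAD cores were in windows of Col3a1, Col6a2, Col18a1 and Col20a1. A match describes letters in the window and is not evidence of binding.

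Genes that make, cut and bind collagen were scored in the same way. Of 19 genes for collagen modification and folding, 15 had an interaction (78.9%), with a median of 3. P3h3, a prolyl 3-hydroxylase family gene whose bins also hold ends of Usp5 and others, had 16, and P3h1 and P4ha2 had 9 each. Crtap, Mia3, P4ha3 and Ppib had 0. Of 13 genes for procollagen processing and cross-linking, 11 did (84.6%), with a median of 3. The proteinase genes Tll1 and Adamts14 had 14 and 13 (the end bins of Adamts14 also hold an end of Tbata), whereas Lox, the founding lysyl oxidase, had 1. All 10 collagen receptor genes did (100%, interval 69.2 to 100%), with a median of 3.5, led by Ddr2 with 14 and Itga1 with 11, whose end bins also hold ends of Hsd17b7 and Pelo. Of 7 genes of collagen-degrading proteases, 6 did (85.7%), with a median of 9. Mmp8, a neutrophil collagenase gene whose end bins also hold an end of Mmp27, had 23, and the cathepsin gene Ctsk, which shares its end bins with Arnt, had 16. Each interval of these lists contained the 65.7% of coding genes except that of the receptors, and all overlapped the interval of the collagen genes. At annotated starts alone the shares were 73.3% (modification, 15 genes listed), 88.9% (receptors, 9 genes) and 80.0% (degradation, 5 genes), against 60.6% of collagen genes. For processing it was 4 of 8 genes, with a median of 0.5, below the collagen genes.

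The tumor cells were isolated from tissue, per the series design, and such tissue can hold vessels, pericytes and fibroblasts, which also make collagen. Of 9 fibroblast and pericyte markers, 7 had an interaction, with a median of 4 and a range of 0 to 28. Of 11 endothelial markers, 8 did (median 3, range 0 to 13), and all 9 microglia markers did (median 3, range 2 to 16). All 11 neural stem cell and astrocyte markers did (median 21, range 3 to 50). Over all coding genes the share was 65.7% and the median 2. The intervals of the fibroblast and pericyte list (40.0 to 97.2%) and of the endothelial list (39.0 to 94.0%) contained that share. Those of the microglia list (66.4 to 100%) and of the neural stem cell and astrocyte list (71.5 to 100%) lay above it. Many markers shared end bins with other coding genes. Alone in their bins were 6 of 9 fibroblast and pericyte, 5 of 11 endothelial, 1 of 9 microglia and 6 of 11 neural markers. The fibroblast and pericyte list ran from Acta2 (28) and Foxc1 (24) down to Dcn (1), Rgs5 (1), Abcc9 (0) and Lum (0). The end bins of Acta2 and Foxc1 also hold ends of Stambpl1 and Gmds. The endothelial list ran from Kdr (13), Flt1 (10, in bins that also hold an end of Pan3) and Pecam1 (7) down to Erg, Tek and Tie1 (0 each). In 1 list from tissue, a contact in few cells and a weak contact in many cannot be told apart, and the part of each cell type in the collagen contacts was not tested.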

How the data were processed

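The series design and extraction protocol describe HiChIP, and the sample titles H3K27ac ChIP-seq, of YAP-M tumor and neural stem cells, 2 libraries each. The authors' deposited list gives the chromosome, start and end of both anchors of 99041 interactions and no count, score or sample column, per the file header. Per the submitters' processing notes, BWA and mm10 were used; the sources used here do not name the interaction caller, its threshold or any pooling. No test across samples was possible. Genes came from NCBI RefSeq of GRCm38.p6, with strands and promoter sequences from its promoter table where listed. Bins overlapping 2.5 kb around either gene end were counted with Python 3.11.15 and pandas 2.3.3, and intervals (Clopper-Pearson) used SciPy 1.17.1. The counting was tested on simulated data. Adjacent interactions, within 1 bin at both anchors, were merged as an alternative; other alternatives were windows of 0 and 5 kb, the anchor midpoint, starts only, the gene span and genes alone in their bins. Members, classes and lists were chosen with earlier results of these data known. Every member is named; those with 10 or more interactions, the type IV genes, Col1a1, Col1a2, Col3a1 and neighbouring collagen genes are described in full, with up to 5 partner genes each. Other genes named were chosen after their values were seen, except the 2 with the most interactions in each list.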

Additional observations from a re-analysis of the deposited data

How the results depend on the processing

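No paired analysis was possible because no library has values of its own, and leaving out a replicate and a stricter threshold were not run for the same reason. A member at 0 was not detected at this unknown depth, not shown to lack contacts. The anchor midpoint rule counts few bins by construction, since a 5 kb window need not hold the midpoint of a 10 kb bin. It lowered the share of collagen genes with an interaction to 40.5% (40.5% of coding genes) and their median to 0. It also gave medians of 1 for fibrillar and 0 for other types (33.3% with an interaction), and lowered the modification, processing and receptor lists to 47.4%, 46.2% and 60.0%, with list medians of 0, 0, 1 and, for degradation, 0. Over the gene span the median rose to 5 for all members, 7 for fibrillar, 26.5 for basement membrane (100% with an interaction) and 4 for other types, with 3 over coding genes. At starts only, the median was 1 for all members, 5 for basement membrane (3 genes) and 1 for other types, against 1 over coding genes. Merging gave medians of 2 for fibrillar, 1.5 for basement membrane, 1 for other types, 1 for modification and 4 for degradation. The other types had a median of 1 with a window of 0 kb and 0.5 when alone in their bins. The remaining 59 of 86 values for the family, its classes and the lists stayed within the interval of the reported share or within 1.5 times the reported median. Of 265 alternative counts of single members, 208 stayed within 1.5 times. Part of these values could not move. Merging cannot change a share with an interaction. For the 17 members at 0, a window of 0 kb, the midpoint and merging can give only 0. For the 22 members alone in their bins, that setting repeats the reported count. The span moved 16 member counts, merging 14, the midpoint 10, starts only 8, and the windows of 5 and 0 kb moved 6 and 3.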

Other observations

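The interior bins of collagen genes met ends of genes outside the family, all named here after their values were seen. In Col15a1, 6 interactions of inner bins met an end of Tgfbr1, which encodes a TGF-beta receptor and lies next to it at higher coordinates (47353222 to 47414926 on chromosome 4), and 5 met an end of Galnt12 at lower coordinates. In Col24a1, 2 met an end of Ccn1, a matricellular gene and known YAP target that had 21 interactions in all, 2 met an end of Znhit6 and 1 an end of Ddah1. In Col18a1, 5 met an end of Pofut2, a protein O-fucosyltransferase gene, as did 1 interaction at its start.

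Each autosomal type IV pair had contacts with an insulin receptor substrate gene on its low-coordinate side. Over their spans, 3 interactions of Col4a1 met an end of Irs2, and 2 interactions inside Col4a4 met an end of Irs1. Other genes were met about as often: Naxd and Rab20 by 2 interactions each at the first locus, and Daw1 by 1 at the second. Irs2 and Irs1 themselves had 71 and 48 interactions at their ends, so the collagen loci were a small share of their contacts. How often other loci meet genes with so many contacts was not computed.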
